A study of Mus musculus with 6 samples.

Results

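The 10 genes described here code for the proteins that bring iron into the cell, carry it, store it, release it and sense it: *Tfrc*, *Slc11a2*, *Pcbp1*, *Pcbp2*, *Fth1*, *Ftl1*, *Ncoa4*, *Slc40a1*, *Ireb2* and *Aco1*. They were chosen by symbol, and all 10 were found among the 55367 genes of the expression table, had values in every library and passed the filter on low values. RNA-seq was performed on leukemia stem cells (LSCs) sorted from the bone marrow of mice with acute myeloid leukemia, 8 to 10 weeks old by the labels, in 3 WT and 3 Piezo1cKO libraries (spelled Piezo1cko in the labels), to learn how PIEZO1, a mechanically gated cation channel, acts on these cells. The Piezo1cKO mice carried Mx1-cre and Piezo1 fl/fl and the WT mice were Piezo1 fl/fl littermates without the Cre, and both had been treated with pIpC, which switches on Cre from the interferon-responsive Mx1 promoter in blood cells and in other tissues. Lineage-negative marrow cells of both genotypes were transduced with MLL-AF9 in a retrovirus that also carries YFP and transplanted into irradiated recipients, so all 6 libraries share the oncogene, the pIpC and a host that keeps its own non-blood cells. The LSC gate was Lin- Sca-1- c-Kit+ CD16/32hi CD34+ YFP+. The labels do not say whether the 3 libraries of a group came from separate mice, so p-values measure the spread between these libraries, which may be technical.

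Cells take up iron bound to transferrin through the transferrin receptor, carry it out of the endosome by a divalent metal transporter, pass it to iron chaperones and place the surplus in ferritin, a shell of heavy and light chains. Ferritin is opened again by autophagy through NCOA4, and ferroportin is the one known exporter of iron ions. The iron regulatory proteins, coded by *Aco1* and *Ireb2*, bind stem-loops called iron-responsive elements when iron is low: in the 5′ UTR they hold back translation, as in ferritin and ferroportin mRNAs, and in the 3′ UTR they protect the mRNA from decay, as in *Tfrc*. Free ferrous iron feeds the lipid peroxidation that marks ferroptosis, and fast-growing leukemia cells are known for a high demand for iron.

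The iron-responsive elements are shown because they divide these mRNAs into those controlled at translation and those controlled at mRNA decay. A C, 5 bases and a loop that starts with CAGTG were searched on the sense strand of annotated protein-coding transcripts, with all 3 pairs next to the loop and at least 4 of the 5 pairs outside the bulged C, GU pairs allowed. The loop letters and the C at that spacing were found in 67.2% of the 21877 genes searched, and the whole stem-loop in 155 of them (0.709%). Of the 10 genes, 4 held it, by the GRCm38 annotation, and capitals mark the bulged C and the 6 bases of the loop. Elements of another form are missed by these rules, so a gene without a match may still carry one. *Fth1* has 1 match in its 5′ UTR at chr19:9982732-9982761 on the plus strand, *Ftl1* 1 in its 5′ UTR at chr7:45459778-45459807 on the minus strand, and *Slc40a1* 1 in its 5′ UTR at chr1:45925464-45925493 on the minus strand. *Tfrc* has 4 in its 3′ UTR on the plus strand, at chr16:32631219-32631248, chr16:32631598-32631627, chr16:32631663-32631692 and chr16:32631710-32631739.
Fth1: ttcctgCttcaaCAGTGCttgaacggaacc
Ftl1: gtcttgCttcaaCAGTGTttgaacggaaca
Slc40a1: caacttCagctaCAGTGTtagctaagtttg
Tfrc site 1: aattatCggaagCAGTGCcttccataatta
Tfrc site 2: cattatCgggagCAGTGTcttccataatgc
Tfrc site 3: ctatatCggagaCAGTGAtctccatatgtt
Tfrc site 4: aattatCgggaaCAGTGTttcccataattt

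**Figure D1:**
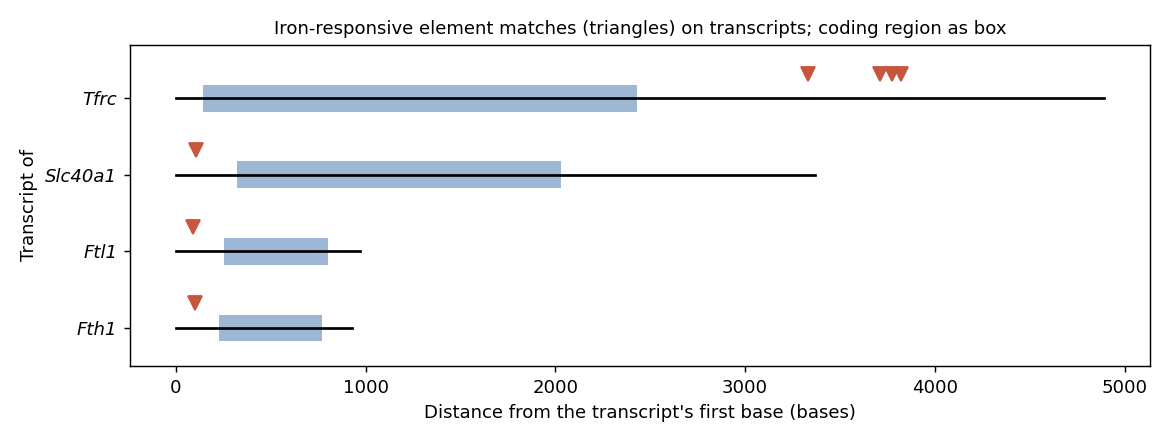
Position of the stem-loop matches (triangles) along 1 annotated transcript each of Tfrc, Slc40a1, Ftl1 and Fth1, in bases from the first base of the transcript, with the coding region as a box. The 3 matches of Slc40a1, Ftl1 and Fth1 lie before the coding region, and the 4 of Tfrc lie after it.

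The deposited values are on a log2 scale that pulls low and scattered genes toward their mean over all libraries, so a difference on it understates the change. Reads were therefore recovered from the values, and both scales are given: a difference of deposited values, tested by limma with Benjamini-Hochberg adjustment over all genes, and recovered reads, normalized to the library's size factor where a mean is given, tested by limma-voom. Libraries held 14112119 to 15483609 recovered reads. *Piezo1* itself had 104, 92 and 113 recovered reads in WT and 35, 58 and 45 in Piezo1cKO libraries, 45.9% of the WT mean (log2 difference of deposited values -0.29, adjusted p = 5.8e-06), and whether the remaining reads come from the floxed exons cannot be read from a gene total. Of the sort's own genes *Kit* and *Cd34* were higher in Piezo1cKO LSCs (log2 differences 0.31 and 0.46), *Fcgr2b*, 1 of the genes of the CD16/32 stain, was lower (-0.75), *Fcgr3*, the other, was not called (-0.02, adjusted p = 0.57), and *Ly6a* (Sca-1, which the gate excludes) rose from 1, 1 and 0 reads to 10, 17 and 7 (adjusted p = 0.00054).

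Of the 10 iron genes, 9 differed between WT and Piezo1cKO LSCs at an adjusted p under 0.05, beside 63.0% of the 16746 genes tested. Of these, 4 were lower (31.4% of all genes were) and 5 higher (31.6%). On recovered reads the count was again 9, beside 62.9% of all genes. The 3 libraries of 1 group lay wholly above those of the other for the same 9, beside 66.6% of all genes. The largest falls were to 33.6% of WT reads for *Pcbp1* and 41.6% for *Tfrc*. The largest rises were to 166% for *Slc40a1* and 157% for *Ireb2*, and the other 6 lay between 74.7% and 122% of WT. The median size of the difference was 0.19 (log2, deposited values) over the 10 genes and 0.09 over all genes tested. On recovered reads it was 0.35 over the 10 genes and 0.44 over all. With so many genes called in all, the count is no result about iron genes as a group, and the genes are given 1 by 1 by their role.

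**Figure D2:**
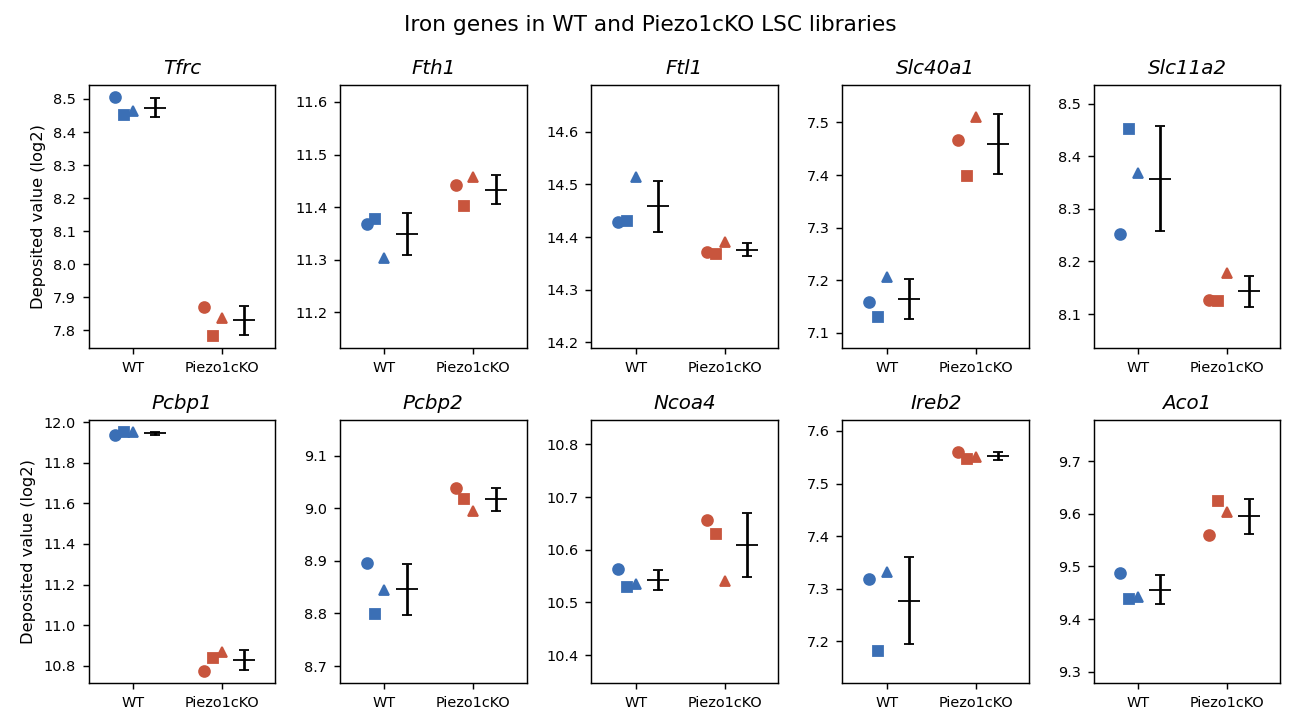
Deposited log2 value of each iron gene in every library (circle, square and triangle for replicates 1, 2 and 3; WT blue, Piezo1cKO red), with the group mean and SD (n = 3) as a black bar; each panel has its own axis range. The groups are apart for 9 genes and overlap for Ncoa4, with Pcbp1 (11.95 against 10.83) and Tfrc (8.47 against 7.83) farthest apart.

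On the uptake side, both genes fell. *Tfrc*, the transferrin receptor, had 460, 414 and 440 recovered reads in WT libraries and 182, 170 and 177 in Piezo1cKO libraries. The highest Piezo1cKO library was far below the lowest WT library. Normalized reads were 429 ± 15.1 in WT and 179 ± 12.3 in Piezo1cKO LSCs (SD, n = 3), which is 41.6% of WT or a 2.40-fold lower level. The log2 difference was -0.64 (SE 0.04, adjusted p = 5.4e-11) on deposited values and -1.27 (SE 0.08, adjusted p = 4.0e-09) on recovered reads. The study names *Tfrc* from these same libraries, so its direction here is not independent evidence. The study also reports qRT-PCR of ferroptosis-related genes in the human leukemia line MOLM13 and lists primers for TFRC. Those measurements are separate from these libraries and were not used here. Of the 14 erythroid marker genes examined, whose lineage carries much transferrin receptor, 11 were tested, 7 were lower in Piezo1cKO LSCs and none was higher. Of all genes tested, 31.4% were lower and 31.6% higher. Their summed level was 28.8 to 33.8 CPM (recovered reads scaled to the library total) in WT and 10.8 to 12.4 in Piezo1cKO libraries. The globin gene *Hba-a1*, which defines red cells, had at most 16 reads in any library. *Klf1*, an erythroid transcription factor, fell from 77, 79 and 87 reads to 21, 25 and 15. *Gata1*, another, had 63, 73 and 52 reads in WT and 83, 70 and 67 in Piezo1cKO libraries and was not called (adjusted p = 0.16). *Hba-a1*, *Hbb-bs* and *Alas2* were not called either. The part of these genes' cells in the *Tfrc* difference was not tested, and in such bulk libraries fewer cells of a type and less RNA per cell cannot be told apart.

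*Slc11a2*, which codes for the divalent metal transporter DMT1, had 315, 392 and 369 recovered reads in WT and 246, 263 and 271 in Piezo1cKO libraries. The groups did not overlap, and the WT libraries were the more scattered. Normalized reads were 352 ± 45.0 in WT and 263 ± 11.02 in Piezo1cKO LSCs (SD, n = 3), 74.7% of WT (log2 difference -0.21, SE 0.04, adjusted p = 0.00045 on deposited values, and -0.41 on recovered reads).

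The pair of PCBP chaperones, RNA-binding proteins that also hand ferrous iron to ferritin and other proteins, moved in opposite directions. *Pcbp1* had 4658, 4534 and 4751 recovered reads in WT libraries and 1387, 1586 and 1571 in Piezo1cKO libraries. The gap between the groups was many times the spread within either. Normalized reads were 4555 ± 31.0 and 1531 ± 75.9 (SD, n = 3), so the Piezo1cKO level was 33.6% of WT, or 2.98-fold lower. The log2 difference was -1.12 (SE 0.03, adjusted p = 1.6e-16) on deposited values and -1.57 (SE 0.04, adjusted p = 2.7e-14) on recovered reads. By the study's thresholds a differentially expressed gene (DEG) has an adjusted p under 0.05 and changes by more than 1 on the log2 scale. On deposited values *Pcbp1* was the 1 iron gene past both, beside 0.818% of all genes in either direction and 0.561% in the lower one. On recovered reads *Pcbp1* and *Tfrc* passed them, beside 24.9% of all genes and 12.2% in the lower direction. *Pcbp1*, too, is named by the study from these libraries, and PCBP1 is also among its qRT-PCR primers.

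*Pcbp2*, its close relative, had 482, 412 and 457 reads in WT and 530, 554 and 517 in Piezo1cKO libraries. Every Piezo1cKO library was above every WT library. The normalized mean rose from 441 ± 26.0 to 540 ± 13.8 (SD, n = 3), 122% of WT (log2 difference 0.17, SE 0.04, adjusted p = 0.00049 on deposited values). The ratio of *Pcbp1* to *Pcbp2* reads within a library was 9.66, 11.005 and 10.4 in WT and 2.62, 2.86 and 3.04 in Piezo1cKO LSCs. This ratio needs no scaling between libraries, and its exact two-sided permutation p of 0.1 is the smallest that 3 libraries against 3 can give. It was chosen after the values had been seen. Another relative, *Pcbp3*, had 64, 74 and 64 reads in WT and 153, 171 and 162 in Piezo1cKO libraries (log2 difference 0.44, adjusted p = 1.4e-08), and *Pcbp4* at most 18 reads in any library.

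*Pcbp1* is a gene of 1 exon at chr6:86524492-86526321 on the minus strand, and 75 of its exon bases are shared with an exon of the antisense gene *1600020E01Rik* on the plus strand. The antisense gene rose from 315, 320 and 311 reads to 401, 446 and 442 (log2 difference 0.27, adjusted p = 4.1e-06), so the 2 overlapping genes moved in opposite directions. The library kit does not mark the strand, and reads in the shared bases cannot be told apart. *Pcbp2* shares 1573 exon bases with *Map3k12* on the opposite strand, which had 470 to 514 reads per library and a difference that did not pass the test (log2 difference -0.02, adjusted p = 0.70), so part of the *Pcbp2* count is uncertain.

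*Pcbp1* and *Tfrc* are the 2 genes whose reads fell most, and their promoter regions are shown for that reason, from 250 bases before to 50 after a transcription start in RefSeq (GRCm38.p6). Capitals mark the letters ACGTG, 1 form of the core of the hypoxia response element that HIF1A binds, on either strand (CACGT when read on the other), and CACGTG, the E-box that MYC and MAX bind, where the 2 overlap. The study's own HIF1A motif, GCGTR (R is A or G), was not searched. Both regions hold it unmarked on the other strand, read here as TACGC in *Pcbp1* and CACGC in *Tfrc*, so the counts below leave such cores out. The *Pcbp1* region is chr6:86526140-86526439 on the minus strand and the *Tfrc* region chr16:32608646-32608945 on the plus strand.
Pcbp1: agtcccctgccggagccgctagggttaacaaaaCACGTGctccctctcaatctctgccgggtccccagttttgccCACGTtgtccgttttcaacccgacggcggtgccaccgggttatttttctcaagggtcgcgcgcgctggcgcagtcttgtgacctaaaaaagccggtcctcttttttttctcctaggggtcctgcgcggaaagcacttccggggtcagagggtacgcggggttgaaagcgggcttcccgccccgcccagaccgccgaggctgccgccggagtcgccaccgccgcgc
Tfrc: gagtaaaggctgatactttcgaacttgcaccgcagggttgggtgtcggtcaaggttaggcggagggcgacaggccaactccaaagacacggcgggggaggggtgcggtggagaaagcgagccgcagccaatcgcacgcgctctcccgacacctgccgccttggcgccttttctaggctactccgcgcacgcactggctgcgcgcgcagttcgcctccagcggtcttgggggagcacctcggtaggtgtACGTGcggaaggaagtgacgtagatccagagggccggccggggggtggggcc
The *Pcbp1* region held 2 stretches with these letters and the *Tfrc* region 1. Over the 10 genes, 13 promoter regions of 8 genes were matched and 5 of them held the letters, of *Pcbp1*, *Tfrc* and *Ncoa4*, beside 6447 of all 32851 promoter regions of this length (19.6%). The 2 *Tfrc* regions overlap and share 1 match, so the count of 5 holds it more than once. A match is a run of letters and was not tested for binding, and the *Ncoa4* difference did not pass the test.

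Ferritin mRNAs changed little, and in opposite directions. *Fth1*, the heavy chain, which oxidises the iron that enters the shell, had 2705, 2624 and 2561 recovered reads in WT and 2700, 2787 and 2813 in Piezo1cKO libraries. After normalization the groups did not overlap, with 2579 ± 100.3 reads in WT and 2800 ± 75.0 in Piezo1cKO LSCs (SD, n = 3), 109% of WT. The log2 difference was 0.08 (SE 0.03, adjusted p = 0.015) on deposited values. This call rests on single libraries: without WT replicate 3 the adjusted p was 0.10 and without Piezo1cKO replicate 3 it was 0.071.

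*Ftl1*, the light chain, which helps the iron core to form, had 22807, 21967 and 24897 reads in WT and 20051, 21425 and 20974 in Piezo1cKO libraries, the highest count of the 10 genes. WT replicate 3 stood above the rest. Normalized reads were 22750 ± 1041 in WT and 21057 ± 248 in Piezo1cKO LSCs (SD, n = 3), 92.6% of WT, with a log2 difference of -0.08 (SE 0.02, adjusted p = 0.0018) on deposited values. Without WT replicate 3 it was -0.054 (adjusted p = 0.027), and -0.073 in place of -0.11 on recovered reads. After quantile normalization it was -0.02 (adjusted p = 0.33), so its fall depends on the scaling. The ratio of *Ftl1* to *Fth1* reads within a library was 8.43, 8.37 and 9.72 in WT and 7.43, 7.69 and 7.46 in Piezo1cKO LSCs (exact permutation p = 0.1, two-sided, the smallest possible). Copies of the ferritin genes can share reads with them. The *Ftl2-ps* and *Ftl1-ps1* rows held 135 to 302 reads in a library, small beside *Ftl1*. Both were highest in WT replicate 3 (247 and 302). They do not show how many *Ftl1* reads were shared with or lost to copies, which was not tested.

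*Ncoa4*, the receptor that delivers ferritin to autophagy, had 1554, 1442 and 1523 recovered reads in WT and 1586, 1653 and 1448 in Piezo1cKO libraries. Piezo1cKO replicate 3 lay among the WT libraries, and the groups overlapped. Normalized reads were 1476 ± 27.9 and 1580 ± 95.5 (SD, n = 3), 107% of WT, and the log2 difference of 0.07 (SE 0.03) did not pass the test (adjusted p = 0.086). Without Piezo1cKO replicate 3 it was 0.10 (adjusted p = 0.017).

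*Slc40a1*, which codes for the exporter ferroportin, rose. It had 124, 113 and 137 recovered reads in WT and 196, 188 and 215 in Piezo1cKO libraries. The lowest Piezo1cKO library was well above the highest WT library. Normalized reads were 122 ± 9.01 in WT and 202 ± 17.9 in Piezo1cKO LSCs (SD, n = 3), 1.66-fold higher. The log2 difference was 0.29 (SE 0.04, adjusted p = 5.6e-06) on deposited values and 0.72 (SE 0.11, adjusted p = 4.0e-05) on recovered reads. The mRNAs of *Tfrc* and *Slc11a2* thus fell while that of *Slc40a1* rose. The wider lists of uptake and of export genes, given below, each went both ways. The ratio of *Tfrc* to *Slc40a1* reads within a library was 3.71, 3.66 and 3.21 in WT and 0.929, 0.904 and 0.823 in Piezo1cKO LSCs (exact permutation p = 0.1, two-sided, the smallest possible, for a ratio chosen after the values had been seen).

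Ferroportin is known for its high level in iron-recycling macrophages, and part of the macrophage marker genes examined rose with it. Of 14 examined, 10 were tested and 6 were higher in Piezo1cKO LSCs (31.6% of all genes were), none lower (31.4% were). Their summed level was 399.6 to 421 CPM in WT and 473 to 487 in Piezo1cKO libraries. *Cd68* holds most of that sum, with 3762, 3721 and 3795 reads in WT and 4270, 4733 and 4600 in Piezo1cKO libraries. *Cd163*, the receptor for haptoglobin and hemoglobin, had 26, 21 and 17 reads in WT and 112, 102 and 114 in Piezo1cKO libraries, and *Spic*, the transcription factor of red pulp macrophages, 0, 3 and 0 against 20, 11 and 10. *Adgre1* (F4/80) had 594 to 642 reads and was not called (adjusted p = 0.65), *C1qa* was at 0 everywhere and *Timd4* had at most 2 reads. *Vcam1*, *Csf1r* and *Hmox1* were not called either (adjusted p = 0.71, 0.34 and 0.25). *Siglec1* went the other way, with 3, 4 and 1 reads in WT and 0 in every Piezo1cKO library, too few to be tested. Their part in the *Slc40a1* difference was not tested.

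The genes of both iron regulatory proteins rose. *Ireb2* codes for IRP2, which the cell degrades when iron is plentiful, and had 149, 111 and 154 recovered reads in WT and 206, 216 and 208 in Piezo1cKO libraries. WT replicate 2 was the lowest, and the Piezo1cKO libraries lay close together above all WT libraries. Normalized reads were 135 ± 19.9 and 212 ± 2.43 (SD, n = 3), 1.57-fold higher, with a log2 difference of 0.28 (SE 0.04, adjusted p = 2.0e-05) on deposited values and 0.66 (SE 0.11) on recovered reads. *Aco1* codes for IRP1, which is the cytosolic aconitase while it holds an iron-sulfur cluster, and had 728, 663 and 698 reads in WT and 732, 842 and 789 in Piezo1cKO libraries. Its normalized mean rose from 682 ± 20.9 to 796 ± 28.6 (SD, n = 3), 117% of WT (log2 difference 0.14, SE 0.03, adjusted p = 0.0014).

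**Figure D3:**
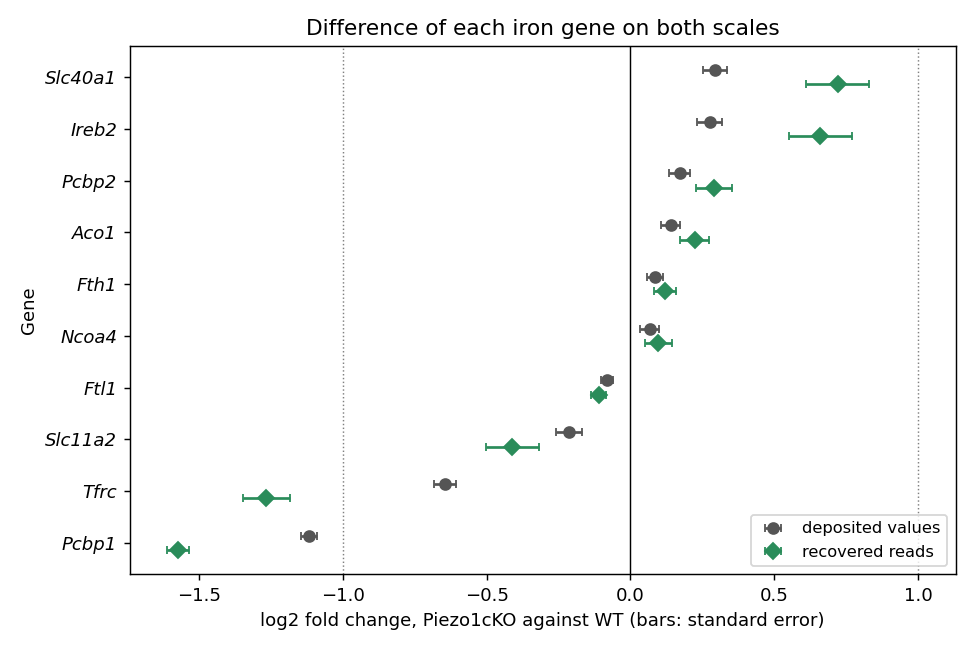
log2 fold change of each iron gene, Piezo1cKO against WT, on deposited values (circles) and recovered reads (diamonds), with standard errors; dotted lines mark a log2 fold change of 1 either way. Each gene lies on the same side of 0 on both scales, and the change on recovered reads is the larger, from -1.12 to -1.57 for Pcbp1 and from 0.29 to 0.72 for Slc40a1.

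The 4 genes with a stem-loop thus differed in direction. *Tfrc*, with 4 matches in the 3′ UTR, fell, and of the 3 genes with 1 match in the 5′ UTR, *Slc40a1* and *Fth1* rose and *Ftl1* fell. Protein and its translation were not measured. Of all 155 genes with a match, 110 were tested, of which 38 were lower and 37 higher in Piezo1cKO LSCs (68.2%, beside 63.0% of all genes), and the 1 gene past both DEG thresholds on deposited values was *Fn1*, which codes for fibronectin, with 24.5 normalized reads in WT and 285 in Piezo1cKO LSCs. On recovered reads 27 of 111 passed both, 16 lower and 11 higher, beside 24.9% of all genes.

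Levels were compared between genes per length of their annotated exons, as RPKM of the recovered reads (normalized to the size factors, then scaled to kb and to the mean total of the 6 libraries). In WT LSCs the order was *Ftl1* (1141), *Pcbp1* (167), *Fth1* (49.9), *Ncoa4* (10.6), *Aco1* (10.2), *Pcbp2* (5.70), *Tfrc* (4.66), *Slc11a2* (3.72), *Ireb2* (0.956) and *Slc40a1* (0.911), as means of 3 libraries. The neighbours *Ncoa4* and *Aco1*, and *Ireb2* and *Slc40a1*, overlapped between libraries. By these lengths *Pcbp1* (56.2) had come down to the level of *Fth1* (54.2) in Piezo1cKO LSCs, with overlapping libraries. There *Tfrc* (1.94) stood below *Slc11a2* (2.78). *Slc40a1* and *Ireb2* shared the lowest place, both at 1.51, again with overlap. All exon bases count in these lengths, whether or not the cells use them, so the order is approximate.

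**Figure D4:**
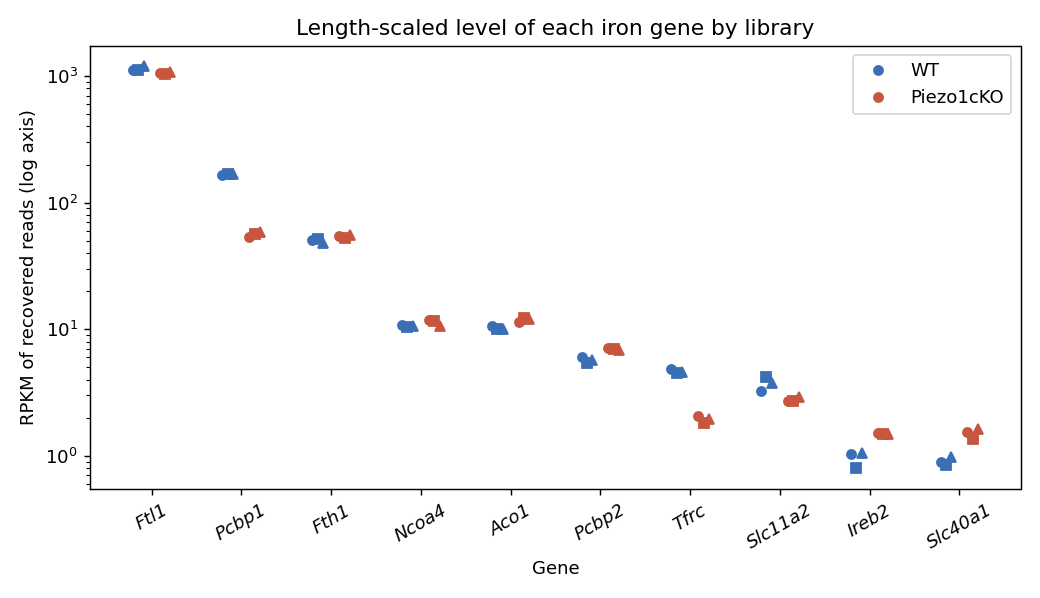
Level of each iron gene in every library (symbols as replicates 1, 2 and 3; WT blue, Piezo1cKO red) in RPKM of recovered reads, on a log axis, ordered by the WT mean. Ftl1 is at about 1141 and Slc40a1 at about 0.911 in WT, and Pcbp1 drops from 167 to 56.2. It is then level with Fth1 when all annotated exon bases are counted as length.

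Another 85 genes of iron handling, in 7 lists, put the 10 genes in their pathway. Of these, 71 were tested, and 19 were lower, 27 higher and 25 not called in Piezo1cKO LSCs (64.8% called, beside 63.0% of all genes), with a median log2 difference of 0.02. None passed both DEG thresholds on deposited values, beside 0.818% of all genes. On recovered reads 7 of the 71 did, a smaller share than the 24.9% of all genes.

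Of 14 genes of uptake and endosomal reduction tested, 5 were lower and 6 higher. *Trf*, the gene of transferrin, the ligand of *Tfrc*, rose from 2771 ± 47.6 to 5341 ± 103 normalized reads (SD, n = 3; log2 difference 0.68, adjusted p = 3.1e-14), so ligand and receptor mRNAs differed in opposite directions. *Mcoln1*, a cation channel of endosomes and lysosomes, and *Lrp1*, a receptor that takes up heme bound to hemopexin, rose (log2 differences 0.29 and 0.28), and *Exoc6*, needed for the cycling of transferrin to and from the cell surface, fell (-0.24). On recovered reads *Cd163* and *Hfe* passed the DEG thresholds, beside 24.9% of all genes. *Hfe*, whose protein binds the transferrin receptor, had a normalized mean of 80.8 in WT and 162 in Piezo1cKO LSCs.

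Of 7 genes of storage, chaperones and ferritin turnover, 2 were lower and 3 higher. *Tax1bp1*, an autophagy receptor that works in ferritin turnover, fell from 16695 to 13266 normalized reads (log2 difference -0.24, adjusted p = 2.9e-09), and so did *Glrx3* (-0.13), a glutaredoxin that hands on iron with *Bola2*, which rose (0.17). *Herc2*, the ligase that degrades NCOA4, rose (0.14), and *Pcbp3* is given above. Of 7 genes of iron and heme export and ferroxidases, 2 were lower and 1 higher. *Cp*, the ferroxidase ceruloplasmin, which the study also names, rested on 10, 7 and 9 reads in WT and 1, 0 and 2 in Piezo1cKO libraries. Of 7 genes of iron sensing and hepcidin signalling, 3 were lower and 2 higher. *Fbxl5* and *Cul1*, parts of the ligase that degrades IRP2, fell (log2 differences -0.18 and -0.20), while *Skp1a*, another part, rose (0.09).

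In mitochondria, 22 genes of iron import and iron-sulfur cluster synthesis were tested, of which 4 were lower and 10 higher. *Glrx5*, the glutaredoxin that passes on new clusters, fell from 2359 ± 32.6 to 1435 ± 52.0 normalized reads (log2 difference -0.50, adjusted p = 4.3e-11). *Hspa9*, the chaperone of cluster transfer, fell to 66.9% of WT (log2 difference -0.42), and *Cisd2*, a cluster protein of the outer membrane and the endoplasmic reticulum, fell as well (-0.29). *Lyrm4*, a subunit of the cysteine desulfurase, rose (0.31). Of 9 genes of cytosolic iron-sulfur assembly 3 were lower and 4 higher, with *Mms19*, *Ciao1* and *Ciao2a* of the targeting complex higher (0.23, 0.22 and 0.22) and *Nubp1* of the scaffold lower (-0.17). Among 5 other mRNAs listed as carriers of an iron-responsive element, 1 was higher, *Sdhb*, a subunit of succinate dehydrogenase (0.27), and 4 were not called.

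**Figure D5:**
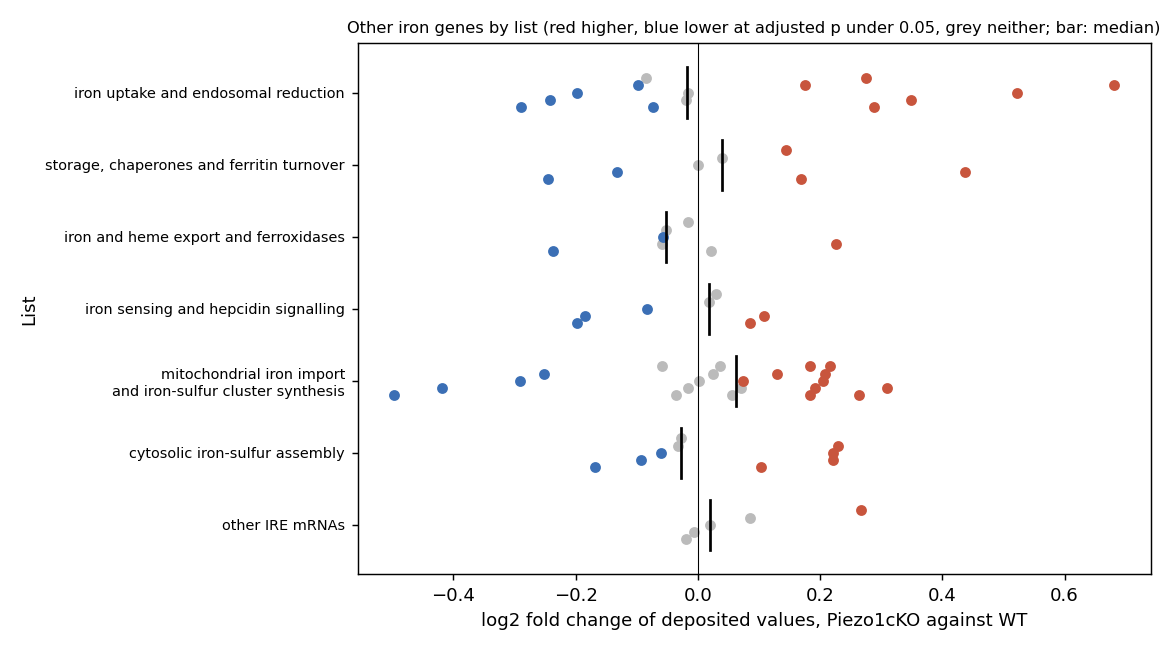
log2 fold change of deposited values, Piezo1cKO against WT, of the 71 other iron genes tested, 1 point a gene, by list (red higher and blue lower at an adjusted p under 0.05, grey neither), with the list's median as a bar. Every list but the last has points on both sides of 0 that passed the test, and the farthest points are Trf at 0.68 and Glrx5 at -0.50.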

How the data were processed

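LSCs of 3 WT and 3 Piezo1cKO libraries were sequenced as poly(A) RNA with a protocol based on Smart-seq2. The submitters' processing notes name fastp (0.20.1), HISAT2 (2.2.1) on GRCm38, featureCounts (2.0.1) and DESeq2 (1.28.1). The deposited table, made by the authors, holds log2 values with the form of a regularized log, which the sources used here do not name, for 55367 genes, of which 28965 are listed at 0 in all libraries. A count test had been planned for a table of counts. As it held log2 values, genes with a mean of at least 1 (16746) entered limma (3.58.1; R 4.3.3) with no covariate and no pseudocount, by lmFit and then eBayes with its trend option. Benjamini-Hochberg adjustment covered all these genes.

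Reads were recovered by undoing the transform: 92.7% of values (genes with a mean of at least 1) came within 0.1 of a whole number, and 22.3% with the pull toward the mean set 10% off. After rounding, the 17352 genes that reached 10 reads over the 6 libraries entered limma-voom. Both steps were tested on simulated data. The recovered totals limit precision for low genes. No replicate pair was alike within sampling noise (mean chi-square per gene 1.55 to 2.80). Positions and stem-loops came from GENCODE M21 and promoters from RefSeq, where *Slc40a1* and *Slc11a2* were not matched.

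The 10 genes and all lists were chosen with earlier results of these data known, and 6 list symbols were updated to current ones. Of each list the genes named are those past both DEG thresholds and otherwise at most 4 with the largest differences at a mean deposited value of at least 7. *Fn1*, *Cp*, *Hfe*, *Cd163*, *Neo1*, *Flvcr2*, *Hamp*, *Pcbp3*, *Pcbp4* and the marker genes were named outside that rule, after their values were seen. The alternatives were no filter, a mean of at least 5, quantile normalization, median centring, no trend, the replicate number as a block, each library left out, and recovered reads with and without scaling to library totals. The block and left-out libraries on recovered reads were added after seeing the data.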

Additional observations from a re-analysis of the deposited data

How the results depend on the processing

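*Tfrc*, *Pcbp1*, *Slc11a2*, *Slc40a1*, *Pcbp2*, *Ireb2*, *Aco1* and *Piezo1* kept their direction and their call in all 21 alternative fits. The log2 difference of *Tfrc* ran from -0.66 to -0.61 on deposited values and from -1.31 to -1.21 on recovered reads, and that of *Pcbp1* from -1.14 to -1.09 and from -1.60 to -1.53. *Ftl1* lost its call under quantile normalization (-0.019, adjusted p = 0.33). *Fth1* lost it with a library left out, at 0.061 without WT replicate 3 and 0.073 without Piezo1cKO replicate 3, and on recovered reads at 0.086 and 0.10. *Ncoa4* gained a call under quantile normalization (0.082, adjusted p = 0.042), median centring (0.093, adjusted p = 0.018), library totals on recovered reads (0.11, adjusted p = 0.041) and without Piezo1cKO replicate 3 (0.10, and 0.15 on recovered reads, the highest with a library left out, the lowest being 0.043 without Piezo1cKO replicate 1), and its adjusted p over all alternatives ran from 0.014 to 0.28. The cause was not tested.

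The number of iron genes past both DEG thresholds was 1 on deposited values and 2 on recovered reads, with library totals and with every library left out as well. Over all genes it was 137 on deposited values (of 10556 called by the adjusted p alone), and on recovered reads 4322, 4333 with library totals and 4061 to 4147 with a library left out (4127, 4147 and 4061 without WT replicates 1, 2 and 3, and 4105, 4139 and 4140 without those of Piezo1cKO); the deposited scale shrinks differences by its construction.

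With the replicate number as a block, *Ncoa4* passed the test (0.066, adjusted p = 0.029, and 0.10, adjusted p = 0.034, on recovered reads), all 10 iron genes were called, the count over all genes was 11055, and DEGs on recovered reads were 4364, 2 of them iron genes. No other iron gene changed its call. Deviations of same-numbered libraries correlated at 0.22, 0.18 and 0.08, so the numbers were not taken to pair the libraries, although all 6 correlated best with their own number, a hint from the data and not from the design.

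*Slc40a1* and *Ireb2* rest on 111 to 216 reads in a library, and of the other iron genes *Cp*, *Hamp*, *Flvcr2* and *Neo1* on at most 22, so no fold is given for those.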

Other observations

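Further iron genes passed the DEG thresholds on recovered reads, with few reads or at a low level. Of all genes, 24.9% passed them, a larger share than of the other iron genes. *Neo1*, the receptor neogenin, which binds hemojuvelin, had 2, 3 and 0 reads in WT and 15, 11 and 22 in Piezo1cKO libraries (limma-voom adjusted p = 0.00036). *Flvcr2*, a transporter of the heme exporter family, had at most 20 reads in WT and 6 in Piezo1cKO libraries (adjusted p = 0.049), and *Hamp*, the gene of hepcidin, at most 4 and 5 (adjusted p = 0.041). *Pcbp3* rose 2.48-fold in normalized reads. On deposited values the differences of *Flvcr2* and *Hamp* did not pass the test (adjusted p = 0.051 and 0.093).

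Markers of other cells that the gate should leave out also differed, while of all genes tested 31.4% were lower and 31.6% higher. Of 8 mature granulocyte genes tested, 6 were lower and 1 higher in Piezo1cKO LSCs, and their summed level was 169 to 170.4 CPM in WT and 61.9 to 64.8 in Piezo1cKO libraries. *Ngp* fell from 1321, 1295 and 1292 reads to 145, 130 and 138, while *Mmp8*, the neutrophil collagenase, rose from 39, 42 and 49 to 623, 639 and 616 and makes up most of the Piezo1cKO sum. Of 5 B cell genes tested 4 were higher and none lower, and the sum of 818 to 846 CPM in WT and 1520 to 1543 in Piezo1cKO libraries is mostly *Ighm*, with 10925 to 11026 and 19376 to 20496 reads. Of 3 T and NK cell genes tested 2 were lower and 1 higher. Their sum, 268 to 281 CPM in WT and 168 to 171 in Piezo1cKO libraries, is almost wholly *Nkg7*, with 4247, 4135 and 4148 reads against 2379, 2496 and 2411, while the NK cell gene *Klrb1c* rose from 0 in all 3 WT libraries to 32, 38 and 52 reads. *Cd8a* was at 0 in every library, and *Cd3e* and *Cd4* had at most 2 reads.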
